A study of Homo sapiens with 10 samples.

Results

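STAT and IRF genes and the feedback gene SOCS3 were examined in 8 H3K27ac ChIP-seq peak lists of HER2 breast cancer cells. The 9 genes were STAT2, STAT3, STAT5A, STAT5B, STAT6, IRF1, IRF2, IRF9 and SOCS3. They are 9 of the 19962 protein-coding genes on chromosomes 1 to 22 and X in the annotation, and were taken by name. For each gene, every peak that overlapped the gene body or the 50 kb on either side was taken. These windows held 100 of the 76044 regions obtained by merging the peaks of all 8 lists (hg38). The windows of STAT3, STAT5A and STAT5B overlap on chromosome 17, so that some regions belong to more than 1 gene and these 3 genes are not independent of each other.

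H3K27ac is a histone acetylation found at active promoters and enhancers. The lists came from SKBR3 and MDA-MB-453, established human breast cancer cell lines of the HER2 class. The 4 groups were SKBR3 untreated, SKBR3 with TWEAK, MDA-MB-453 untreated and MDA-MB-453 with TWEAK, each with 2 libraries. All cells were starved of serum for 8 h, and treated cells received recombinant TWEAK, the ligand of the Fn14 receptor, at 10 ng/ml for 48 h with a fresh dose at 24 h. The study's methods describe the libraries of a group as biological replicates, though the labels do not tie a library to a culture or day. Each line is a single cell line, so any difference between the lines is a difference between 1 line of each kind. The study asked how TWEAK alters the enhancers of breast cancer cells, and the lists allow 2 questions about these genes: how their H3K27ac differs between the lines, and whether it changes with TWEAK.

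STAT proteins are latent transcription factors that JAK kinases phosphorylate at activated cytokine receptors, after which they pair and enter the nucleus. STAT2 and IRF9 belong to the complex that binds the interferon-stimulated response element (ISRE), whereas STAT3, STAT5A, STAT5B and STAT6 act mainly as dimers at gamma-activated sites (GAS). IRF1 activates and IRF2 mostly represses genes of the interferon response, and SOCS3 is a feedback inhibitor of JAK kinases that STAT3 induces.

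The 8 lists held between 36148 and 51687 peaks that covered between 70.5 and 105.7 Mb, and no read counts were used, so depth is unknown. The SKBR3 lists were the longer ones, with at least 43684 peaks against at most 37813 in MDA-MB-453. Peaks whose q-value from the caller was under 1e-05 made up 39.4% to 52.6% of the SKBR3 lists and 59.8% to 63.8% of the MDA-MB-453 lists. As a check of the label, ERBB2, which encodes HER2, GRB7 and the epithelial genes EPCAM, KRT8, KRT18 and KRT19 had a promoter peak in all 8 lists, and the blood and endothelial genes PTPRC, CD3E and PECAM1 had none in any. Of the other markers of blood, endothelium and fibroblasts, CD68, CDH5 and COL1A1 had a peak near a start site in all 8 lists and PDGFRB in the 4 SKBR3 lists. Among the luminal markers GATA3, FOXA1 and SPDEF had one in all 8.

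Levels are given as the percentile of a peak's score among all peaks of its own list, where 100 is the highest score and 0 stands for no peak. A promoter value is that of the highest peak within 1 kb of any annotated start site of the gene. Main start means the start of the gene's Ensembl canonical transcript.

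The promoters of IRF1 and IRF9 and the main promoter of STAT5B are shown first, because they carry the sequence matches or the line difference described later. Each sequence is the RefSeq promoter (hg38), which runs from 250 bases before to 50 bases after the start, 5′ to 3′ on the strand of the gene. Capitals mark matches to GAS (TTCNNNGAA) or NF-κB motifs, and the STAT5B sequence has no match to any motif searched.
IRF1, chr5:132490724-132491023, minus strand: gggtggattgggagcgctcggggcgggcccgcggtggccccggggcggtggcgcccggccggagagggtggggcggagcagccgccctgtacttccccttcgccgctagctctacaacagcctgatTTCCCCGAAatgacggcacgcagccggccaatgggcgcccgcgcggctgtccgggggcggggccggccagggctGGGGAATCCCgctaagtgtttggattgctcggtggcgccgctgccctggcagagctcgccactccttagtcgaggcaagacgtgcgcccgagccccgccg
IRF9, chr14:24161015-24161314, plus strand: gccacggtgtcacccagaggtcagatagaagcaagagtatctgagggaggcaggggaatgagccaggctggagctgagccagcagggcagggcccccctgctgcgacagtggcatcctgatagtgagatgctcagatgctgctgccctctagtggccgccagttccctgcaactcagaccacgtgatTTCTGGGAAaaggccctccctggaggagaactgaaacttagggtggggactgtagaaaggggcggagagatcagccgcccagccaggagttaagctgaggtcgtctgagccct
STAT5B, chr17:42276342-42276641, minus strand: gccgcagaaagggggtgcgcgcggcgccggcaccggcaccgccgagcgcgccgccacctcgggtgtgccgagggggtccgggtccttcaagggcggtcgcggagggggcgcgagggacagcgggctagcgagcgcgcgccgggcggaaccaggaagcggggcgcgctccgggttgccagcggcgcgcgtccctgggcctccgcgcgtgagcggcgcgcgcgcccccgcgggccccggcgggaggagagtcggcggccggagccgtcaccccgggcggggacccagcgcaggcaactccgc
In IRF1 the GAS match TTCCCCGAA begins 124 bases and the NF-κB match GGGGAATCCC 50 bases upstream of the start. The IRF9 match TTCTGGGAA begins 63 bases upstream. A GAS match was present in 7.66% and an NF-κB match in 5.91% of the 35116 RefSeq promoters of this length. Of the 3 RefSeq promoters of STAT5A, 2 held a match: TTCCTCTGAA, the GAS form with a spacer 1 base longer, beginning 229 bases upstream of the start, and GGGGGACCCC, an NF-κB match, beginning 219 bases upstream. The RefSeq promoters of STAT2, STAT3, STAT6 and SOCS3 held no match to GAS, that longer form, ISRE, NF-κB or AP-1 (TGANTCA), both strands searched. Those of STAT6 and SOCS3 do not cover the main start of the gene. The central 1000 bp of the region at the SOCS3 main start held 2 GAS matches and 1 NF-κB match. At the STAT6 main start they held 1 match to the longer GAS form and 1 to NF-κB. RefSeq promoters were matched for 8 of the 9 genes, all but IRF2.

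H3K27ac was found at a promoter of 8 of the 9 genes in SKBR3 and of 7 in MDA-MB-453. The lines differed in which of them ranked high. STAT3, STAT5B and SOCS3 ranked higher in every SKBR3 library than in any MDA-MB-453 library, and STAT2, IRF2 and IRF9 ranked higher in every MDA-MB-453 library. STAT6 was near the top of all lists, and STAT5A had no promoter peak in any.

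**Figure D1:**
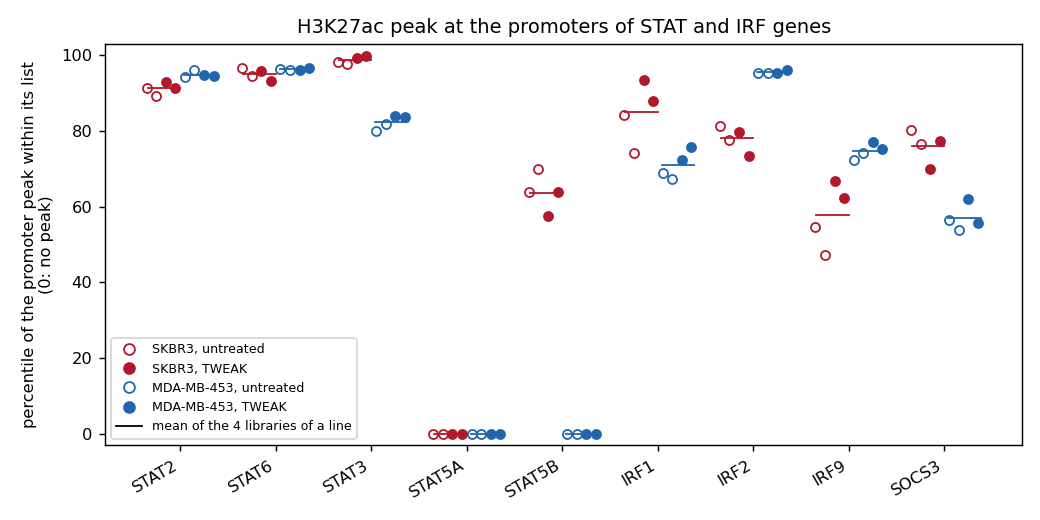
Percentile of the promoter peak within its list (y axis, 0 where there is no peak) for each gene in the 8 libraries; open points are untreated and filled points TWEAK libraries, and bars are means of the 4 libraries of a line. STAT3, STAT5B and SOCS3 lie higher in SKBR3, STAT2, IRF2 and IRF9 higher in MDA-MB-453, and STAT5A is at 0 throughout.

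The STAT3 promoter had percentiles of 98.2 and 97.8 in untreated and 99.4 and 99.8 in TWEAK-treated SKBR3, and of 80.1, 81.8, 84.0 and 83.6 in MDA-MB-453 in the same order. All SKBR3 values lay above all MDA-MB-453 values, by 16.5 points on average (SE 0.650, adjusted p = 5.8e-06, limma). The highest SKBR3 peak was at an internal start site inside the gene, and the main start itself was at 97.9, 97.4, 97.7 and 97.2.

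STAT5B encodes a mediator of prolactin and growth hormone signals. Its promoter was at 63.7 and 69.8 in untreated SKBR3 and at 57.4 and 63.9 with TWEAK, and no MDA-MB-453 list had a peak there. The gene entered the test only through its SKBR3 values, so its difference of 63.7 points (SE 2.81, adjusted p = 9.0e-06, limma) was bound to be a SKBR3 excess. STAT5A, its neighbour and close relative, was listed at 0 in all 8 libraries and was not tested.

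SOCS3 had promoter percentiles of 80.2, 76.4, 69.9 and 77.4 in SKBR3, in the order untreated then TWEAK, and of 56.4, 53.9, 62.0 and 55.6 in MDA-MB-453. The lines did not overlap, and the difference was 19.0 points (SE 2.83, adjusted p = 0.0016, limma).

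For IRF2 the order was turned. Its promoter was at 81.2, 77.7, 79.7 and 73.4 in SKBR3 and at 95.3, 95.3, 95.4 and 96.2 in MDA-MB-453, a difference of -17.6 points for SKBR3 minus MDA-MB-453 (SE 1.65, adjusted p = 0.00021, limma). IRF9, the DNA-binding partner of STAT2, was at 54.7 and 47.1 in untreated and 66.7 and 62.3 in TWEAK-treated SKBR3, against 72.4, 74.2, 77.2 and 75.1 in MDA-MB-453. Every MDA-MB-453 value for IRF9 was above every SKBR3 value (difference -17.0 points, SE 2.57, adjusted p = 0.0017, limma).

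STAT2 followed the same direction by a smaller step. It was at 91.4, 89.2, 93.1 and 91.4 in SKBR3 and at 94.3, 96.1, 94.8 and 94.4 in MDA-MB-453 (difference -3.65 points, SE 0.795, adjusted p = 0.0077, limma). STAT6, the factor of interleukin 4 and interleukin 13 signals, was between 93.1 and 96.7 in SKBR3 and between 96.1 and 96.7 in MDA-MB-453, and its difference of -1.27 points did not pass the test (SE 0.788, adjusted p = 0.202, limma). It did pass when peaks were ranked by fold enrichment (-2.67, adjusted p = 0.0374), with only peaks of q under 1e-05 (-4.37, adjusted p = 0.0323) and with the replicate number as a block (adjusted p = 0.0319, limma).

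IRF1 was at 84.3, 74.1, 93.5 and 88.0 in SKBR3 and at 68.8, 67.3, 72.3 and 75.8 in MDA-MB-453. The ranges overlapped, and the difference of 13.9 points passed the test (SE 2.79, adjusted p = 0.0055, limma). This call rested on start sites away from the main one, and libraries differed in which start had the highest peak within 1 kb. In SKBR3 TWEAK replicate 1 that peak was in a region 38.7 kb downstream of the main start (chr5:132444153-132452073). This region also holds the main start of another protein-coding gene. It was at 93.4, 89.3, 93.5 and 92.7 in SKBR3. Only in TWEAK replicate 1 of SKBR3 did its highest peak lie within 1 kb of an IRF1 start and so count. In the other SKBR3 libraries and in untreated MDA-MB-453 the peak that counted was in a region 3.8 kb upstream (chr5:132494567-132501127). In TWEAK-treated MDA-MB-453 it was at the main start. At the main start alone IRF1 was at 74.8, 58.1, 85.7 and 73.4 in SKBR3 and at 58.5, 62.7, 72.3 and 75.8 in MDA-MB-453. That difference, 5.70 points, did not pass.

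In all, 7 of the 8 genes tested were called between the lines at an adjusted p under 0.05, against 63.9% of all 13568 genes tested. Of these, 4 were higher in SKBR3 (background 32.8%) and 3 in MDA-MB-453 (background 31.1%). Without overlap between the lines, 3 of 8 were higher in SKBR3 and 3 of 8 in MDA-MB-453, with backgrounds of 29.5% and 29.8%. For those 6 genes the exact two-sided permutation test over 4 against 4 libraries gave p = 0.0286, the smallest it allows. Most genes differ between these lines, so the count by itself does not set these genes apart.

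Ordered by the mean percentile, the SKBR3 promoters ran from STAT3 (98.8 ± 0.944, SD, n = 4) through STAT6 (95.1 ± 1.58), STAT2 (91.3 ± 1.60), IRF1 (85.0 ± 8.17), IRF2 (78.0 ± 3.39), SOCS3 (76.0 ± 4.38) and STAT5B (63.7 ± 5.06) to IRF9 (57.7 ± 8.59). The libraries of STAT2 and IRF1, IRF1 and IRF2, IRF2 and SOCS3, and STAT5B and IRF9 overlapped. In MDA-MB-453 the order was STAT6 (96.4 ± 0.270, SD, n = 4), IRF2 (95.6 ± 0.458), STAT2 (94.9 ± 0.801), STAT3 (82.3 ± 1.80), IRF9 (74.7 ± 1.98), IRF1 (71.0 ± 3.80) and SOCS3 (57.0 ± 3.50). There STAT6 and IRF2, IRF2 and STAT2, and IRF9 and IRF1 overlapped. IRF2 thus stood next to the highest promoter in 1 line and in the middle of the order in the other.

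Peak width at the main start told the lines apart for 3 genes with a peak in both. The STAT3 peak was 4.63, 2.63, 4.91 and 5.84 kb wide in SKBR3 and between 2.09 and 2.27 kb in MDA-MB-453. The peaks of IRF2 and IRF9 were wider in MDA-MB-453, with 4.07 ± 0.337 kb against 3.16 ± 0.402 kb for IRF2 and 3.97 ± 0.249 kb against 2.62 ± 0.472 kb for IRF9 (SD, n = 4). For each of the 3 genes the lines did not overlap (exact two-sided permutation test, p = 0.0286). The share of all genes whose widths separate the lines was not computed, so this count has no background. Among the 8 widths tested, the exact test did not separate the lines for the widths of STAT2 (p = 0.2, exact), STAT6 (p = 0.686, exact), IRF1 (p = 0.371, exact) or SOCS3 (p = 0.686, exact), whose peaks were between 1.04 and 4.14 kb wide.

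Beyond the promoters, the chromosome 17 locus of STAT3, STAT5A and STAT5B differed most. Peaks covered 50.8 and 40.7 kb of the STAT3 window in untreated SKBR3 and 57.8 and 55.1 kb with TWEAK, against 2.09, 2.15, 2.27 and 2.20 kb in MDA-MB-453. In MDA-MB-453 all of that length was the single peak at the STAT3 start. The mean was 23.5-fold higher in SKBR3, and the difference was 4.02 on the log2(kb + 1) scale (SE 0.0758, adjusted p = 3.6e-06, limma).

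The STAT5A window was covered over 27.7, 23.1, 31.5 and 29.0 kb in SKBR3 and was listed at 0 kb in all 4 MDA-MB-453 libraries. On the log2(kb + 1) scale STAT5A ranked 3 of 19962 genes by the SKBR3 excess, the largest excess first (4.84, SE 0.0794, adjusted p = 2.4e-06, limma), STAT3 was at rank 26 and STAT5B at rank 271. A window free of peaks in MDA-MB-453 was not rare, as 2340 genes had one, but only 3 of them, STAT5A included, had as much covered length in SKBR3 as STAT5A. STAT5B had 24.2, 19.5, 25.5 and 22.6 kb in SKBR3 and 2.43, 2.43, 2.90 and 2.04 kb in MDA-MB-453, a 9.36-fold difference in the mean (2.79 on the log2(kb + 1) scale, SE 0.114, adjusted p = 3.4e-05, limma). All regions of the STAT5A window also lie in the STAT3 window, and part of those of STAT5B do.

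**Figure D2:**
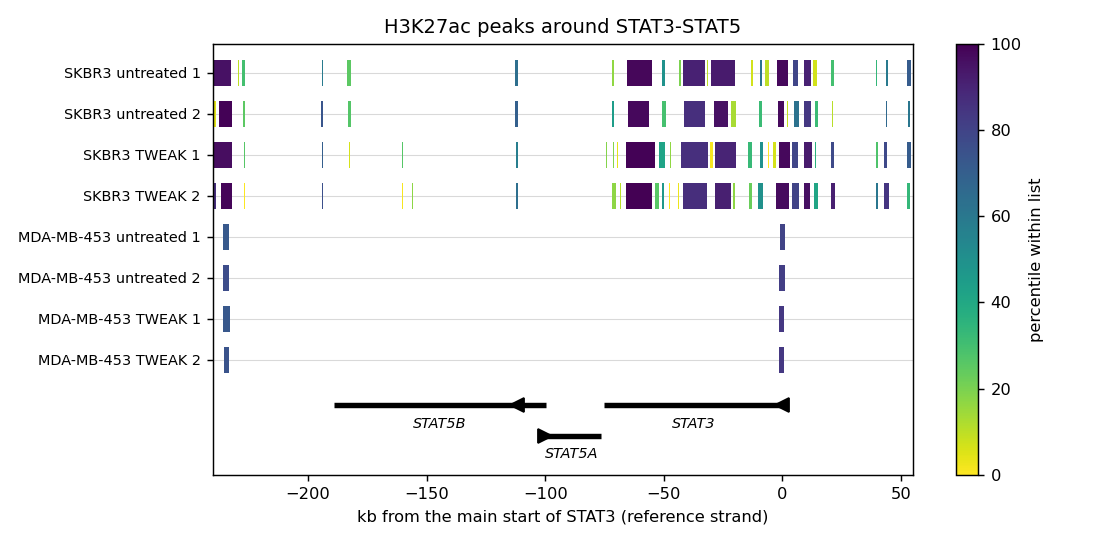
Peaks of each library (rows) along the STAT5B, STAT5A and STAT3 genes, as distance in kb from the main start of STAT3 on the reference strand (x axis); colour gives the percentile within the list, bars below are gene bodies and arrowheads main starts. SKBR3 lists hold peaks across STAT3 and upstream of it, and MDA-MB-453 lists hold 1 peak at the STAT3 start and none to its left for 231.567 kb.

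No MDA-MB-453 list had a peak anywhere between the STAT3 start and RAB5C, a stretch of 231.567 kb (chr17:42155477-42387043). It contains the main starts of KCNH4, HCRT, GHDC, STAT5B and STAT5A. In the same stretch the SKBR3 lists had 15, 11, 18 and 17 peaks that covered 41.5, 32.3, 44.3 and 38.9 kb. The peak nearest to the main start of STAT5A was 11.6 ± 0.0800 kb away in SKBR3 and 98.7 ± 0.126 kb away in MDA-MB-453 (SD, n = 4).

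The widest SKBR3 region of these 3 windows was the one at RAB5C, at the far end of the STAT5B window (chr17:42124371-42156452), which MDA-MB-453 lists also held. Its covered length was 25.3 kb on average in SKBR3 and 2.58 kb in MDA-MB-453. Inside STAT3, a region of mean peak width 11.0 kb (chr17:42322553-42336292) was at 98.2, 97.8, 99.4 and 99.8 in SKBR3. It lies in the 3′ part of the gene body and overlaps exons and an internal start site of STAT3, and is the peak that gave the SKBR3 promoter values of STAT3. Another 2 regions inside the gene had mean percentiles of 92.4 ± 2.36 (chr17:42358029-42369009, intronic) and 87.7 ± 2.16 (chr17:42345794-42357089), both with SD over 4 SKBR3 libraries. A region outside any protein-coding gene, 9.2 kb upstream of the STAT3 start (chr17:42397678-42400807), was at 91.0, 83.9, 92.9 and 95.8. No MDA-MB-453 list had a peak in any of these 4 regions. The upstream region held NF-κB matches, shown here in capitals on the plus strand of hg38 because the region is the highest one outside the gene.
STAT3 upstream, chr17:42398085-42398204: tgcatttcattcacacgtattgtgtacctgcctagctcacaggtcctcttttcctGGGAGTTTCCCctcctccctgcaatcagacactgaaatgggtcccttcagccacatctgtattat
STAT3 upstream, chr17:42398619-42398738: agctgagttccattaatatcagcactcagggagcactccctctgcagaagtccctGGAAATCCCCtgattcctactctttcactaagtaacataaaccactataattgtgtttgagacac
The first stretch holds 2 overlapping matches, 1 on each strand, which together make the capital letters. All these matches lie outside the central 1000 bp of the region, so the motif shares given below are not a like background for them. The region also holds an ISRE match, GAAATAGAAA (chr17:42398585-42398594), between the stretches shown.

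Around SOCS3 the same contrast was smaller. Peaks covered 17.8 and 21.5 kb of its window in untreated and 23.7 and 30.1 kb in TWEAK-treated SKBR3, and 4.43, 4.77, 5.88 and 6.36 kb in MDA-MB-453. The mean was 4.34-fold higher in SKBR3 (1.92 on the log2(kb + 1) scale, SE 0.100, adjusted p = 6.9e-05, limma). In the SOCS3 window 7 regions were SKBR3-specific, that is, held by each of the 4 SKBR3 lists but missing from MDA-MB-453. The 2 with the highest percentiles were inside PGS1 (chr17:78389622-78394104, at 47.9, 55.4, 62.4 and 73.9) and outside any protein-coding gene on the other side of SOCS3 (chr17:78334156-78335483, at 52.4, 42.0, 64.8 and 68.9). PGS1, an enzyme of phospholipid synthesis, lies upstream of SOCS3.

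**Figure D3:**
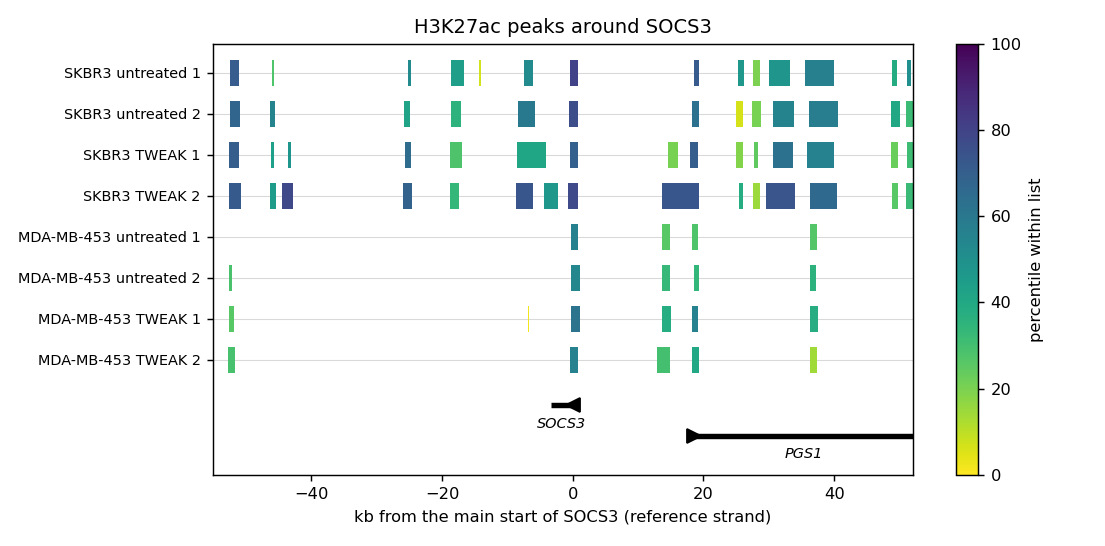
Peaks of each library (rows) around SOCS3, as distance in kb from its main start on the reference strand (x axis); colour gives the percentile within the list and bars below are gene bodies. The peak at the start is in all 8 lists, most flanking peaks are in SKBR3 lists alone, and the peak 42.8 kb to the left is in the 2 TWEAK-treated SKBR3 lists.

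STAT2 and IRF1 also had more covered length in SKBR3, with 19.6 ± 2.70 against 11.7 ± 1.21 kb for STAT2 (0.69 on the log2(kb + 1) scale, SE 0.0896, adjusted p = 0.0016, limma) and 37.1 ± 6.29 against 22.6 ± 0.769 kb for IRF1 (0.67, SE 0.134, adjusted p = 0.0079, limma; SD, n = 4). STAT6 (13.1 ± 2.39 against 10.8 ± 0.352 kb), IRF2 (7.89 ± 1.93 against 6.32 ± 0.985 kb) and IRF9 (27.4 ± 2.69 against 23.5 ± 1.00 kb) did not pass, with adjusted p of 0.178, 0.273 and 0.0747 (limma). Without SKBR3 untreated replicate 2, which had the least covered length in these windows, all 3 passed, at 0.37 for STAT6, 0.44 for IRF2 and 0.29 for IRF9.

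In covered length 6 of the 9 genes were called higher in SKBR3, against 42.3% of all genes, and 0 were called higher in MDA-MB-453, against 23.8%. Without overlap between the lines 6 of 9 were higher in SKBR3, against 40.8%, and none in MDA-MB-453, against 22.8%. The median gene was 0.14 higher in SKBR3 on the log2(kb + 1) scale. After scaling each list to the mean covered length the median was -0.04, the backgrounds were 29.0% and 38.5%, and STAT2 and IRF1 no longer passed. STAT6, IRF2 and IRF9 then pointed to MDA-MB-453, with IRF9 called. The calls of STAT3, STAT5A, STAT5B and SOCS3 held under this scaling.

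**Figure D4:**
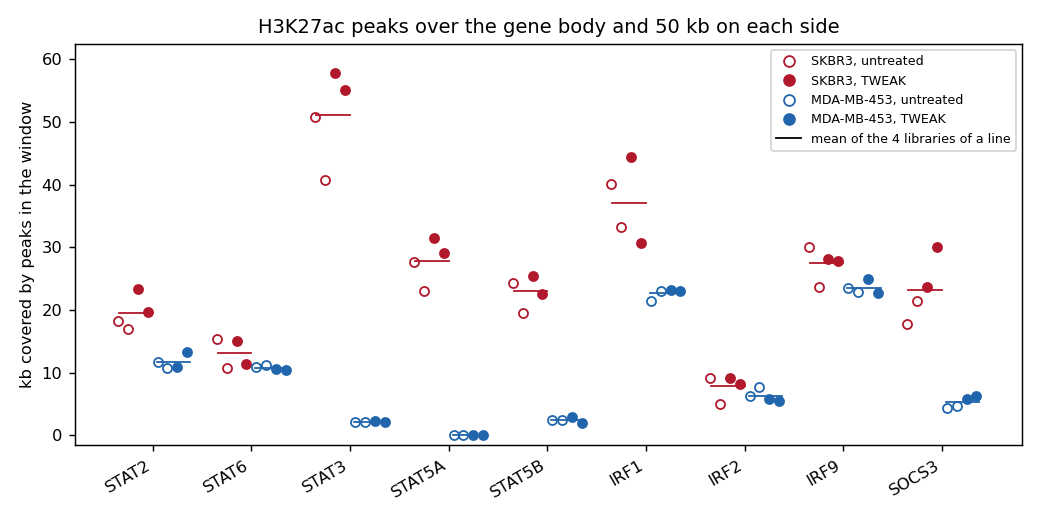
Length covered by peaks (y axis, kb) in the gene body and 50 kb on each side, for each gene in the 8 libraries; open points are untreated and filled points TWEAK libraries, and bars are means of the 4 libraries of a line. STAT3, STAT5A, STAT5B and SOCS3 stand far apart between the lines, and STAT6, IRF2 and IRF9 lie close together.

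Counted by presence, 25 of the 100 regions (25.0%) were held by each of the 4 SKBR3 lists but missing from MDA-MB-453, against 14.1% of all regions. Another 3 (3.0%) were held by each of the 4 MDA-MB-453 lists but missing from SKBR3, against 10.5%. In the fit over all regions 49 were called higher in SKBR3 and 10 in MDA-MB-453, with backgrounds of 28.8% and 20.4%.

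SKBR3-specific regions were most frequent in the window of STAT3, with 12, followed by SOCS3 with 7 and STAT5A and STAT5B with 6 each, some of them shared. STAT2 had 2, STAT6 and IRF9 1 each, and IRF1 and IRF2 none. The higher of the STAT2 regions lies in the gene, 7.1 kb from its start (chr12:56348987-56352981), and overlaps exons of STAT2. It was at 75.8 and 73.8 in untreated and 84.6 and 87.1 in TWEAK-treated SKBR3, while STAT2's own promoter ranked higher in MDA-MB-453. The region in the IRF9 window lies inside DCAF11 (chr14:24122850-24124393) and was at 63.3, 56.4, 68.8 and 66.3. The STAT6 region (chr12:57091973-57097152) also covers a start site of NAB2, had 35.7, 10.9, 42.6 and 12.6, and is named although the rule for named regions left it out.

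The 3 MDA-MB-453-specific regions all lay around IRF1. They were outside the gene 93.2 kb downstream of its start (chr5:132396194-132397593, mean 32.8), inside an upstream transcript of IRF1 (chr5:132504543-132506167, mean 30.2), and just beyond it (chr5:132509812-132510951, mean 31.0). All were of low rank, between 18.9 and 44.7 in single libraries.

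Shared regions were mainly promoters. Of the 8 regions at a main start of a member, 7 were in all 8 lists, and of the 19 at the main start of another gene, 16 were. Of 35 regions inside a member gene away from its main start 3 were in all 8 lists, and of 18 outside protein-coding genes none was. In total 30 of the 100 regions were in all 8 lists.

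Sequence matches in the central 1000 bp of the regions were near the level of all regions for GAS (33.0% against 28.1%) and AP-1 (32.0% against 34.0%). The longer-spaced GAS form was in 16.0% against 24.2%, ISRE in 9.0% against 14.4% and NF-κB in 24.0% against 13.8%. Of the 30 regions in all 8 lists, which were mainly promoters, 13 held an NF-κB match. The share among all regions of the series found in all 8 lists was not computed, so this count has no like background. These shares describe 100 regions, many in the same loci, and were not tested.

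With TWEAK, the promoters of IRF1, IRF9 and STAT3 were higher in both treated libraries than in both untreated ones in each line, but no gene passed the test. IRF9 in SKBR3 moved from 54.7 and 47.1 to 66.7 and 62.3, a difference of 13.5 points (SE 3.63, adjusted p = 0.220, limma), and in MDA-MB-453 from 72.4 and 74.2 to 77.2 and 75.1 (2.85 points, SE 3.63). IRF1 in SKBR3 went from 84.3 and 74.1 to 93.5 and 88.0 (11.5 points, SE 3.94, adjusted p = 0.304, limma) and in MDA-MB-453 from 68.8 and 67.3 to 72.3 and 75.8 (6.0 points, SE 3.94). The IRF1 values did not all come from the same peak. In SKBR3, 93.5 came from the region 38.7 kb downstream of the main start. That region was at 93.4, 89.3, 93.5 and 92.7 in SKBR3, but its highest peak counted for IRF1 in TWEAK replicate 1 alone. At the region 3.8 kb upstream, SKBR3 was at 84.3, 74.1, 89.9 and 88.0 and MDA-MB-453 at 68.8, 67.3, 69.8 and 65.9. The TWEAK values of IRF1 in MDA-MB-453 came from the main start. At the main start of IRF1 alone, where its GAS match lies, the SKBR3 groups overlapped. Whether the GAS matches of IRF1 and IRF9 bear on these differences was not tested. At the main start of STAT3 the SKBR3 difference was -0.21 points.

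None of the 8 genes tested was called in either line by limma, against 0.361% of genes called higher and 0.361% lower in SKBR3 and 0.0221% each way in MDA-MB-453. At an unadjusted p under 0.05 the members were IRF9 and IRF1 in SKBR3 and STAT3 in MDA-MB-453, among 1715 and 413 of all 13568 genes. Higher without overlap were 3 of 8 in SKBR3 (background 9.3%) and 4 of 8 in MDA-MB-453 (background 23.1%), where IRF2 joined them by 0.52 points. With 2 against 2 libraries the exact permutation test cannot go below p = 0.333. The line by TWEAK interaction called none of the 8 promoters, against 0.0958% and 0.0737% of genes in the 2 directions, and none of the 9 windows, against 0.316% and 0.0601%.

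In covered length TWEAK also gave no call among the 9 genes, against backgrounds of 0.711% higher and 0.19% lower in SKBR3 and of 0.025% and 0.0301% in MDA-MB-453. At an unadjusted p under 0.05, 2780 genes in SKBR3 and 582 in MDA-MB-453 passed. In SKBR3, STAT2, STAT3, STAT5A and SOCS3 were higher in both TWEAK libraries than in both untreated libraries, 4 of 9 against 17.8% of genes, and none was lower (background 13.0%). The largest of these were STAT3, by 10.7 kb (0.31 on the log2(kb + 1) scale, SE 0.107, adjusted p = 0.313, limma), and SOCS3, by 7.27 kb (0.43, SE 0.142, adjusted p = 0.286, limma). In MDA-MB-453, 2 of 9 were higher (background 17.2%) and 2 lower (background 14.7%).

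Single regions did pass in SKBR3. Over all 76044 regions, 3 of the 100 were called higher with TWEAK, against 2.72%, and 2 lower, against 0.681%. The shares are close to those of all regions, and all 5 calls were lost with the replicate number as a block and when any 1 of the 4 MDA-MB-453 libraries was left out. All 5 regions were at 0 in the 4 MDA-MB-453 libraries, so those libraries gave the fit degrees of freedom but no spread, and the standard errors rest on 2 against 2 SKBR3 libraries and zeros.

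The region with the largest rise lies inside CAVIN1, 20.7 kb from the STAT3 start (chr17:42409116-42410668). It was at 29.8 and 10.9 in untreated SKBR3 and at 77.5 and 91.3 with TWEAK, and it was in no MDA-MB-453 list (64.0 points, SE 7.75, adjusted p = 0.017, limma). CAVIN1 encodes a coat protein of caveolae. The next lies outside protein-coding genes 42.8 kb from SOCS3 (chr17:78315620-78317244), had no peak in untreated SKBR3 and was at 47.4 and 78.4 with TWEAK (62.9 points, SE 10.0, adjusted p = 0.037, limma). It entered the test only through the 2 TWEAK lists, so its difference could only be a rise. Its call was also lost without either untreated SKBR3 library, with lists of equal size and with q under 1e-05 (27.8 points). The last is at the start of IL23A, a subunit of interleukin 23 whose signals run through STAT3, 20.6 kb from STAT2 (chr12:56336308-56339459). It was at 1.6 and 10.9 without and 33.9 and 34.7 with TWEAK (28.0 points, SE 4.10, adjusted p = 0.029, limma), and the call was also lost with normal scores and with lists of equal size (11.8 points).

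The letters of these 3 regions, plus strand of hg38, are shown because NF-κB and AP-1 are the factors usually activated by Fn14. Capitals mark NF-κB, AP-1 or spaced GAS matches.
IL23A and STAT2, chr12:56338734-56338853: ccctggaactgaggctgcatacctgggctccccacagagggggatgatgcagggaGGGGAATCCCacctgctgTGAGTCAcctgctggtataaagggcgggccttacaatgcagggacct
SOCS3, chr17:78316934-78317053: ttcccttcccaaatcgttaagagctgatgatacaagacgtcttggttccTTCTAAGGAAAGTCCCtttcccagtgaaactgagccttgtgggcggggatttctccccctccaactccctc
CAVIN1 and STAT3, chr17:42409598-42409717: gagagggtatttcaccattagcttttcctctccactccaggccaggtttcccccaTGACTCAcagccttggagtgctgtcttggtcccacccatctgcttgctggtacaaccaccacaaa
The IL23A stretch holds GGGGAATCCC, the same NF-κB letters as in the IRF1 promoter, and an AP-1 match TGAGTCA. In the SOCS3 stretch the spaced GAS match TTCTAAGGAA overlaps the NF-κB match GGAAAGTCCC. The CAVIN1 stretch holds the AP-1 match TGACTCA. Matches of this kind are common, as AP-1 was in 34.0% and NF-κB in 13.8% of all regions in the central 1000 bp alone. The matches shown for IL23A and SOCS3 lie outside the central 1000 bp of their regions, so these shares are not a like background for them. No binding was measured.

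The regions called lower were weak ones. A region inside STAT5B (chr17:42204668-42206336) was at 25.1 and 26.6 in untreated and 6.4 and 0 in TWEAK-treated SKBR3 (-22.6 points, SE 3.10, adjusted p = 0.024, limma). Its call was also lost with normal scores, with ranking by fold enrichment (-5.98 points) and with lists of equal size (-8.85 points). A region at an upstream end of IRF1 (chr5:132508549-132509246) was at 19.6 and 25.2 without TWEAK and absent with it (-22.4 points, SE 2.65, adjusted p = 0.016, limma). It entered the test only through the 2 untreated SKBR3 lists, so its difference could only be a fall, and its call was lost with lists of equal size (-5.15 points). It holds the GAS match TTCCCTGAA, shown in capitals as it is the only member region lost with TWEAK.
IRF1, chr5:132508781-132508900, plus strand: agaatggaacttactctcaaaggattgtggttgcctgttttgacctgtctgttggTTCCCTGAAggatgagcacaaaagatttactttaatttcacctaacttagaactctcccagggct

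By presence, 6 of the 95 regions that SKBR3 lists had in these windows (6.32%) were gained with TWEAK, that is, in both treated and neither untreated list, against 4.61% of all SKBR3 regions, and 1 (1.05%) was lost, against 1.4%. In MDA-MB-453 none of 47 was gained or lost, against 1.33% and 1.3%. Beside the SOCS3 region, the gained ones were 1 in STAT5B (chr17:42227937-42228459, at 26.3 and 1.54), 1 in STAT3 (chr17:42340689-42341474, at 16.4 and 0.52) and 3 in the IRF2 window. The latter were at 6.38 and 32.2 (chr4:184383779-184384677), at 9.13 and 27.8 (chr4:184403426-184404376) and at 26.3 and 17.0 (chr4:184450826-184451380), and the last of them was present in all 4 MDA-MB-453 lists at 29.7, 35.0, 54.2 and 33.7. All but the SOCS3 region were at 32.2 or less in each SKBR3 library. In MDA-MB-453 no region of the series passed the TWEAK fit over regions (0.0% called higher and 0.0% lower, limma), with 2845 at an unadjusted p under 0.05. The interaction called none of the 100 regions, against 0.623% and 0.0684%.

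Of the other JAK-STAT and cytokine receptor genes, 37 of 40 had a promoter peak and were tested, with 15 called higher in SKBR3 (background 32.8%) and 13 in MDA-MB-453 (background 31.1%). The median difference was 3.24 points, against 0.13 over all genes. Among the largest differences were those of IFNAR2 (83.2 points), the kinase JAK3 (73.7 points) and IFNGR2 (69.6 points), all higher in SKBR3. IFNAR2 is a chain of the type I and IFNGR2 a chain of the type II interferon receptor. Their partner chains differed less, IFNAR1 by 7.10 points and IFNGR1 by -3.28 points, and IFNGR1 did not pass (adjusted p = 0.146, limma). The largest in MDA-MB-453 were the feedback inhibitor SOCS2 (-82.9 points), the oncostatin M receptor OSMR (-72.8 points) and the growth hormone receptor GHR (-66.9 points), none of which had a promoter peak in SKBR3. IFNAR2, JAK3 and IL4R had no promoter peak in MDA-MB-453, so that for these 6 genes the direction was fixed by the line through which they entered the test. TWEAK called none of the 37 in either line.

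Interferon-stimulated genes, the targets of the STAT2 and IRF9 complex, leaned to MDA-MB-453. Of the 26 symbols listed, 25 were in the annotation and 21 had a promoter peak. Of the 21, 14 were called higher in MDA-MB-453 (background 31.1%) and 2 in SKBR3 (background 32.8%), and the counts were 14 and 2 of 25 when genes without a peak were kept. The median difference was -23.9 points, against 0.13 over all genes. BST2, a tether of enveloped viruses, was at 10.0, 6.62, 9.13 and 1.54 in SKBR3 and at 87.0, 83.4, 86.1 and 86.0 in MDA-MB-453, and IFIT1, which binds viral RNA, was absent from SKBR3 and at 69.2, 64.1, 66.3 and 67.2 in MDA-MB-453. The RNA sensor RIGI differed by -46.5 points. IFITM3 (64.8 points) and IFITM1 (53.2 points), which block viral entry, were the ones higher in SKBR3, and ISG15 was at 99.3 or more in all 8 lists. IFITM1 and IFITM3 had no peak in MDA-MB-453, and IFIT1, IFIT2, IFI44, OAS2 and RSAD2 none in SKBR3, so their direction was likewise fixed. TWEAK called none of the 21 in either line.

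**Figure D5:**
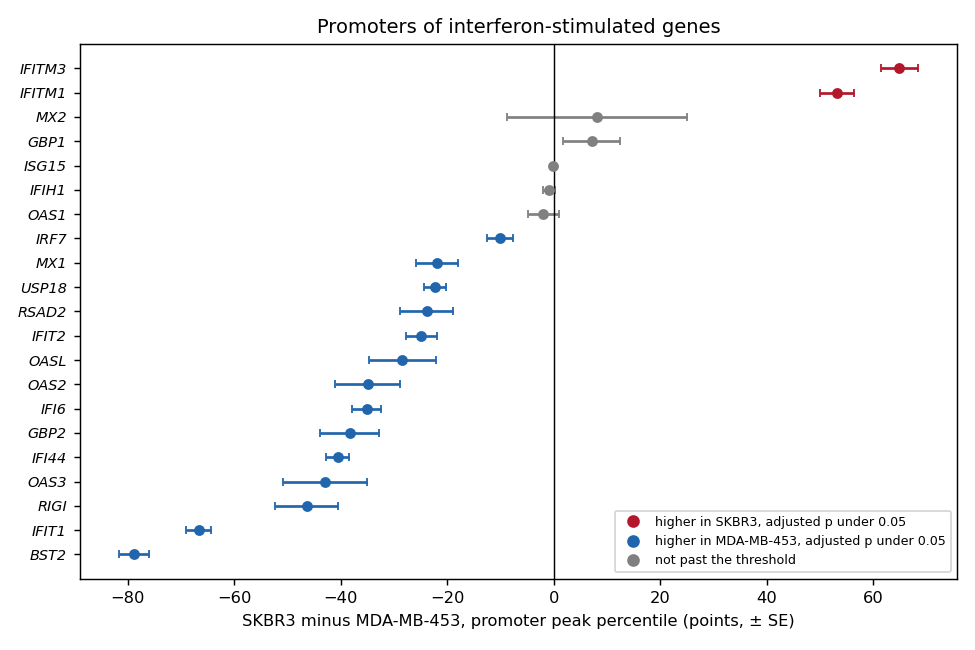
Difference in promoter peak percentile, SKBR3 minus MDA-MB-453 (x axis, points, bars are standard errors), for the 21 interferon-stimulated genes tested (rows). In all 14 lie to the left, higher in MDA-MB-453 at an adjusted p under 0.05, and IFITM1 and IFITM3 to the right.

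For each member with a promoter peak, the protein-coding gene over 1 Mb away with the most similar 8 percentiles was sought by Euclidean distance. STAT6 was closest to UBAP1 (1.29 points), STAT2 to DUSP1 (2.27 points), STAT3 to UBAC2 (3.61 points), IRF2 to TMEM62 (4.44 points), STAT5B to SLC12A5 (4.52 points) and SOCS3 to PLOD2 (6.37 points). IRF9 and IRF1 had the least similar matches, RNF19B (9.23 points) and DRAM1 (11.1 points). DUSP1 had 92.4, 89.8, 94.3 and 91.2 in SKBR3 and 94.7, 95.9, 96.1 and 93.8 in MDA-MB-453, close to STAT2 in every list.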

How the data were processed

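H3K27ac ChIP-seq peak lists of 8 libraries were used, 2 for each of 4 groups, and the 2 input samples were not used. The authors trimmed reads with Trimmomatic and used Bowtie2 to map them to hg38. MACS2 was then run on every library against its input, and peaks in blacklisted regions were taken out with bedtools. Versions are not given in the sources used here, nor are the calling options. For every peak the deposited lists hold a score in whole numbers, a ratio (fold enrichment) and −log10 values of p and q. The lists hold no read counts, so depth is unknown and no counting interval can be given. The study compared signal with DiffBind, which needs reads, and ranks within a list were used in its place.

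The deposited score was turned into a percentile within its own list. Genes and start sites came from GENCODE release 44, promoters from RefSeq (GRCh38.p14). Regions were merged from the peaks of all 8 lists (for presence with TWEAK, of the 4 lists of a line). Promoter percentiles of genes with a promoter peak in at least 1 list, log2(kb + 1) of covered window length for all genes, and region percentiles were each fitted with limma 3.58.1 (R 4.3.3, group means, empirical Bayes with trend, Benjamini-Hochberg adjustment over all features, calls at an adjusted p under 0.05) over all 8 libraries, which share 1 estimate of spread. The contrasts were SKBR3 minus MDA-MB-453, TWEAK minus untreated in each line and their difference. The limma step was tested on simulated data. Exact two-sided permutation tests over libraries used scipy 1.17.1. P-values measure the spread between libraries, which the study's methods describe as biological replicates.

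The members and lists were chosen with earlier results of these data known. By rule the text names all members, the region at each main start, every region gained or lost with TWEAK by presence, up to 2 line-specific regions a member and line with the highest mean percentile and away from other genes' starts, up to 3 called pathway genes a direction, and 1 most similar gene a member. Regions called by the TWEAK fit, the partner chains IFNAR1 and IFNGR1, and the sequence stretches shown were chosen after their values were seen. Alternatives were lists of equal size, only peaks with q under 1e-05, ranking by fold enrichment, normal scores, other promoter, window, merging and overlap rules, scaling of covered length, filters, the replicate number as a block, leaving out each library and, chosen after the data were seen, the main start alone. A few genes of the marker and pathway lists are not reported here by name.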

Additional observations from a re-analysis of the deposited data

Results flagged for a closer look

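In 2 groups of 4 libraries of a line, 1 library stood apart by Dixon's test at 95%. The IRF2 promoter percentile of 96.2 in MDA-MB-453 TWEAK replicate 2 was separated from the other 3 libraries by 0.879 of the range of the 4, and the covered length of the IRF1 window of 21.5 kb in MDA-MB-453 untreated replicate 1 by 0.906. Chance alone flags about 1 in 20 such groups, and the 2 flags were not set against the number of groups screened. Each group holds untreated and TWEAK libraries together. In both cases the whole range was narrow, from 95.3 to 96.2 and from 21.5 to 23.1 kb.

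At 2 regions present in all 8 lists both TWEAK libraries moved one way in SKBR3 and the other way in MDA-MB-453. At the TM9SF1 start in the IRF9 window (chr14:24194133-24198023) the TWEAK difference in percentile was -2.84 points in SKBR3 and 2.55 points in MDA-MB-453. In the IRF1 gene (chr5:132463586-132466808) it was -2.17 and 4.31 points. These were picked out by direction alone, which was not tested, and in the fit over all regions the interaction did not pass at either. The windows held 30 regions in all 8 lists. The share of all regions with such opposite moves was not computed, so the count of 2 has no background.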

How the results depend on the processing

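For promoters between the lines, under every alternative run, 3 or 4 genes were higher in SKBR3 and 3 or 4 in MDA-MB-453, and the backgrounds were 21.1% and 41.2% with only peaks of q under 1e-05 and 22.8% and 39.9% with lists of equal size. In covered length, 1 gene was called higher in MDA-MB-453 in place of 0 after scaling to the mean list, with q under 1e-05 and with windows of 10 kb. Differences that reversed on the log2(kb + 1) scale were those of STAT6 (-0.17 scaled, -0.31 with q under 1e-05), IRF2 (-0.13 scaled, -0.0176 with q under 1e-05, -0.0717 with 10 kb) and IRF9 (-0.22 scaled, -0.46 with 10 kb). With q under 1e-05 the regions called between the lines fell to 24 and 6, and the cause was not tested.

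SKBR3-specific regions numbered 10 with q under 1e-05, 13 with windows of 10 kb and 15 where a peak had to cover 50% of the region, and MDA-MB-453-specific ones 0 with q under 1e-05 and 5 with the 50% rule. Regions gained in SKBR3 numbered 2 with lists of equal size, and regions lost 0 with q under 1e-05, 3 with equal size and 4 with the 50% rule. In MDA-MB-453, 1 was gained with q under 1e-05 and with the 50% rule, and 1 lost with equal size.

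For the TWEAK fit over regions in SKBR3, those called higher numbered 1 with equal size and 6 with normal scores, and those called lower 1 when ranked by fold enrichment, with peaks merged up to 1 kb apart and with normal scores, and 0 with q under 1e-05. The interaction called 1 region in each direction with equal size and 1 larger in SKBR3 with normal scores. Leaving out 1 library gave from 0 to 18 regions called higher and from 0 to 14 lower in SKBR3, from 0 to 1 higher in MDA-MB-453, and interactions from 0 to 15 and from 0 to 13. All 0 counts for SKBR3 came from leaving out any MDA-MB-453 library and the higher counts from leaving out any SKBR3 library, which leaves 1 library in a group that is assumed to vary like the others. By presence, gained regions then ranged from 6 to 17 in SKBR3 and from 0 to 3 in MDA-MB-453, and lost ones from 1 to 10 and from 0 to 1, as fewer lists set the rule.

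The labels give the replicate numbers no shared culture, batch or day, so the block was kept as an alternative. Deviations of same-numbered libraries correlated at 0.24 to 0.46 in SKBR3 and at -0.05 to -0.04 in MDA-MB-453. With the replicate number as a block, 0 regions were called higher and 0 lower with TWEAK in SKBR3, and STAT6 passed between the lines in promoter percentile and in covered length. STAT6 promoters also passed when ranked by fold enrichment and with q under 1e-05. The lists limit all of this, since signal just under the caller's threshold leaves no trace in them, and the lines differ in list length and in the share of strong peaks.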
